A study of Mus musculus with 80 samples.

Results

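RXR ChIP-Seq peaks were compared between livers of mice that received pioglitazone (Pio) in a high-fat diet (HFD-Pio, 5 livers) and livers of mice that received it in control diet (Pio, 5 livers). All 10 mice carried the liver-specific knockout (KO) of PPARγ. These 10 libraries were chosen by their titles out of 80 samples in the series, of which 40 were ChIP and 40 were input libraries. The mice were C57BL6/J males aged 5 months that had been on their diet for 12 weeks. Cre was driven by the Albumin promoter, so that PPARγ was removed from hepatocytes and not by design from the other cells of the liver. Pioglitazone was common to both groups, which by label differed in diet. The drug was mixed into food that was eaten freely, so an effect of diet cannot be told apart from one of drug intake. The labels of all 10 libraries name no antibody although the titles name RXR. They were taken as RXR ChIP, since the methods of the study name an antibody against the RXR family.

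RXR is a nuclear receptor that binds DNA as the partner of other receptors, among them the PPARs, which respond to fatty acids, LXR, which responds to oxysterols, and FXR, which responds to bile acids. The pairs with PPAR and with LXR bind direct repeats of the half-site AGGTCA, and the spacing of the repeat favors one partner over another. Only direct repeats were searched here. A spacing of 1 base (DR1) is the element of PPAR with RXR. In liver such sites are known mostly from promoters, introns and distal enhancers of genes of lipid and bile acid metabolism.

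The closest DR1 elements at sites found in every liver are shown first, because they are the letters at which RXR with PPAR would be looked for. Within 100 bp of the summit, 7 of the 3179 sites with a peak in all 10 livers held AGGTCANAGGTCA on either strand with at most 1 mismatch (0.220%, against 0.364% of all 81223 sites), and 0 held it without a mismatch. All 7 were exonic, as were 88.3% of the 3179 sites in all 10 livers. The reference bases are from RefSeq on GRCm38 (mm10), 30 bases each, read 5′ to 3′ on the strand of the element. Capitals mark the 13 bases of the element.
Map2 (coding exon, chr1:66380687-66380716, plus strand): gggagcacAGGTCACAGGGCAcctattcag
Lasp1 (3′ UTR, chr11:97836881-97836910, minus strand): agatggactAGGGCAAAGGTCAgcacgagg
Myh10 (3′ UTR, chr11:68815071-68815100, plus strand): ggcacaggAGGTCAGAGGTGAtgctgagga
Dlst (coding exon, chr12:85132642-85132671, minus strand): atcagccggTGGTCATAGGTCAgggctaca
Sall2 (coding exon, chr14:52315455-52315484, minus strand): ggccacagtAGGTCCCAGGTCAtggataca
Larp1 (3′ UTR, chr11:58060126-58060155, minus strand): acctccttgAGGTCAAAGGTCGttaaggtt
Fyttd1 (3′ UTR, chr16:32906927-32906956, plus strand): tgctcacaTGGTCATAGGTCAtaaattaca
Fold enrichment at these sites had log2 differences, HFD-Pio minus Pio, from -0.20 at Larp1 to 0.43 at Myh10 (limma adjusted p = 0.982 and 0.928). With at most 2 mismatches, DR1 was found at 2.93% of the sites in all 10 livers and at 2.74% of all sites. The shares were 0.838% of the 358 sites gained on HFD-Pio and 2.41% of the 873 sites lost, as defined below. A repeat without a spacer, searched in the same way, was found at 3.08% of all sites, and a repeat with a spacer of 5 bases at 2.03%. A match of letters is a description and is not evidence of binding by a given pair.

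Depth and the number of peaks came first. The ChIP libraries kept 0.628 to 0.879 megatags in HFD-Pio and 0.660 to 0.929 megatags in Pio livers. HFD-Pio livers had 19472 to 25016 peaks and Pio livers 21265 to 30437, so that the groups overlapped. The mean log2 number of peaks was 14.5 ± 0.140 in HFD-Pio and 14.6 ± 0.197 in Pio (SD, n = 5). The difference of -0.12 lay within the spread of either group (exact permutation test, two-sided, p = 0.341, and 0.831 when adjusted over 20 library measures). Replicate 1 of HFD-Pio stood apart in where its peaks lay. Only 62.4% of its summits were in exons of protein-coding genes, against 72.6 to 80.9% in the other HFD-Pio livers, and 14.7% were outside genes, against 4.39 to 7.10%. The mean exon share was 74.9 ± 7.73% in HFD-Pio and 77.8 ± 3.05% in Pio (SD, n = 5, exact permutation p = 0.516, adjusted p = 0.831). This difference of -2.82 percentage points became 0.327 without that liver. None of the 20 measures passed the adjusted threshold (smallest adjusted p = 0.794, smallest unadjusted exact permutation p = 0.0714, for the share of summits in pseudogenes).

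**Figure D1:**
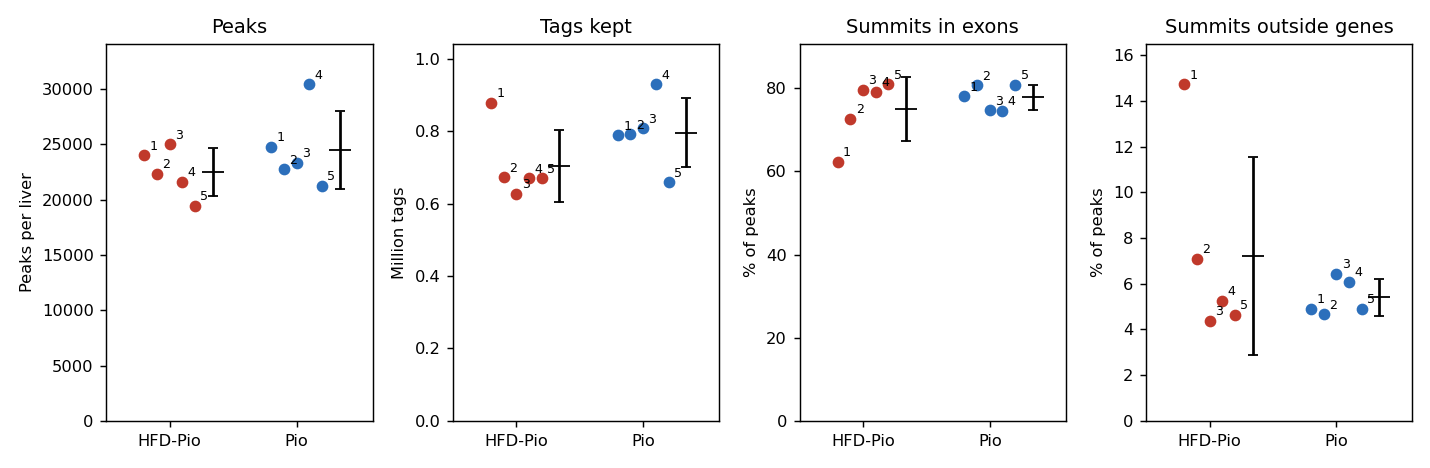
Each point is 1 liver, numbered by replicate, with the number of peaks, megatags kept after removal of duplicates, and the percentages of peaks with the summit in a protein-coding exon or outside genes on the vertical axes. Bars give the mean and SD of 5 livers. Peaks ranged from 19472 to 25016 in HFD-Pio and from 21265 to 30437 in Pio, and replicate 1 of HFD-Pio had the lowest exon share, 62.4%.

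After merging, the 10 livers had 81223 sites, 168 bp wide at the median. Of these, 47750 (58.8%) were called in a single liver and 3179 in all 10. For each pair of livers the peaks of the smaller set that were also in the larger set were counted. At the median this was 47.3% for pairs across the diets, 46.6% for HFD-Pio pairs and 49.97% for Pio pairs. At least 3 of 5 livers called 11388 sites in HFD-Pio and 13471 in Pio, of which 8779 were the same sites.

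The labelled tissue was then checked against markers of liver. Alb, Apoa1, Apob and Fga, which encode the major secreted proteins of hepatocytes, had no peak in any of the 10 livers. Of all 21911 protein-coding genes, 10385 had no peak in any of the 10 livers. Of 86 genes of secreted liver proteins, 62 had no peak and 5 had one in all 10 livers (5.81%, against 13.4% of all protein-coding genes). The list had a peak in 6 to 10 genes per HFD-Pio liver and 6 to 12 per Pio liver. Enzymes of hepatocyte metabolism gave 1 of 65 genes in all 10 livers (Glul, glutamine synthetase), xenobiotic metabolism 1 of 64 and acute phase genes 0 of 19. Neural markers behaved otherwise. A peak was present in all 10 livers in 24 of 35 (68.6%), among them Snap25, Stmn2, Gap43, Scg2 and Tubb3, and the list had a peak in 27 to 31 genes per HFD-Pio and 29 to 30 per Pio liver. The summed strongest fold enrichment of the neural list was 317 to 409 in HFD-Pio and 353 to 444 in Pio. Gfap, a marker of astrocytes, had a peak in 1 of 10 livers and Mobp, a marker of oligodendrocytes, in 0. A ChIP peak measures DNA recovered over input and not expression, and what part these genes had in the comparison of diets was not tested.

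**Figure D2:**
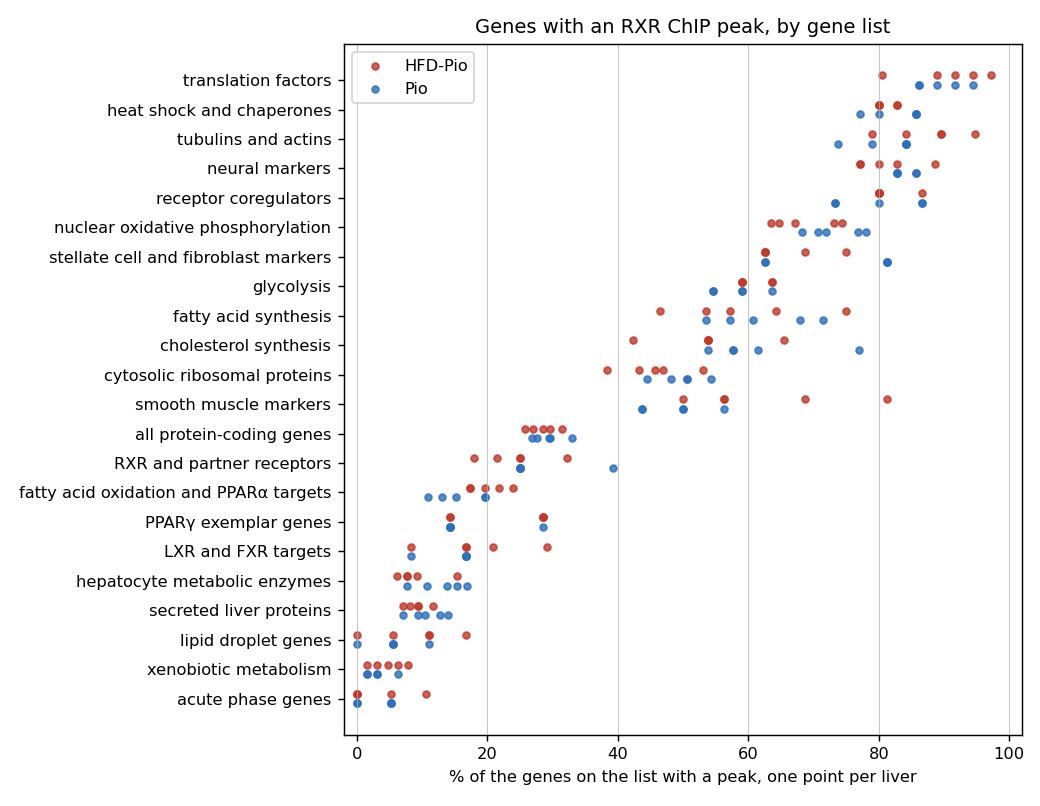
Each point is 1 liver, the horizontal axis gives the percentage of the genes on a list with at least 1 peak, and the vertical axis gives 22 gene collections, all protein-coding genes among them. Points of both diets lie over each other within a list, and translation factors, chaperones, tubulins and neural markers lie above all protein-coding genes while secreted liver proteins, xenobiotic and acute phase genes lie below.

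The first test asked at which sites the strength of ChIP enrichment differed between the diets. Whether a peak marks binding by RXR was not tested. Strength was the fold enrichment of ChIP over input at the summit, compared on the log2 scale after each library was centred on its own median. Of 3179 sites called in all 10 livers, limma called 0 (0%) at an adjusted p under 0.05 with a change of at least 2-fold, and the smallest adjusted p was 0.820. At an unadjusted p under 0.05, 114 sites (3.59%) were higher in HFD-Pio and 54 (1.7%) were lower. Without replicate 1 of HFD-Pio the split was 88 higher and 96 lower. Without centring it was 21 higher and 203 lower. The median log2 difference of all sites was -0.11 before centring and 0.0259 after it. The log2 differences below are relative to the library medians. Differences ran from -0.82 to 0.81 with a median SE of 0.206. The 95% interval of the difference excluded a 2-fold change in both directions at 3122 of 3179 sites (98.2%). A site entered this fit only if all 10 livers had a peak there. Sites without a peak in some liver, including all gained and lost sites described below, are therefore not covered by this share. Where a peak does mark binding, fewer cells with a bound site and less binding per cell cannot be told apart in whole liver.

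**Figure D3:**
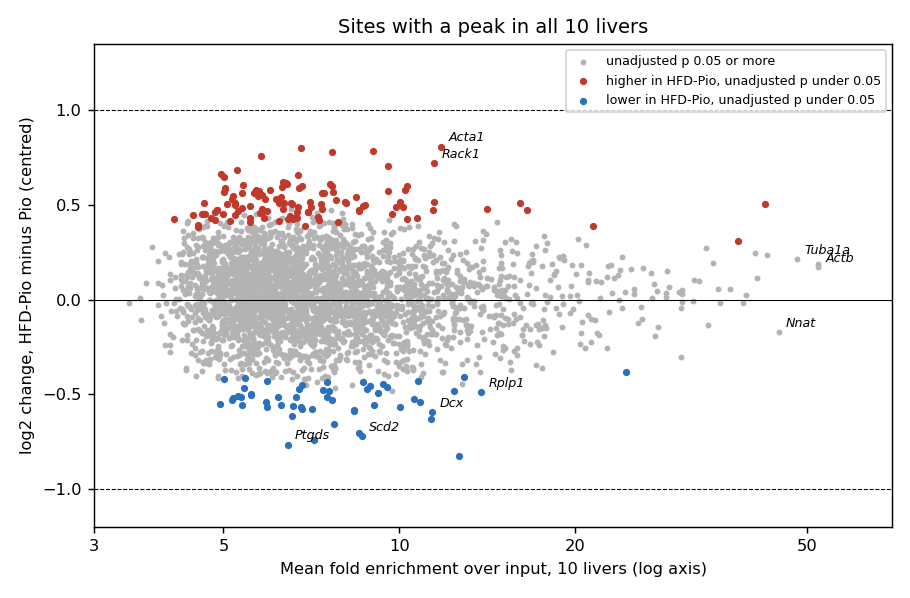
Each point is a site with a peak in all 10 livers, with its mean fold enrichment on the horizontal log axis and the centred log2 difference, HFD-Pio minus Pio, on the vertical axis. Colored points had an unadjusted limma p under 0.05 (114 higher and 54 lower), dashed lines mark a 2-fold change, and no site lies beyond them.

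None of the 5 strongest sites passed the test. The highest mean fold enrichment was at Actb, β-actin, at chr5:142903093-142904900, with 52.6 ± 10.3 in HFD-Pio and 51.9 ± 13.03 in Pio (SD, n = 5, limma adjusted p = 0.982). Next came Tubb5 (52.8 ± 12.8 and 51.4 ± 14.2), Tuba1a (48.6 ± 9.78 and 47.5 ± 13.4), Nnat (39.9 ± 5.23 and 49.5 ± 6.40) and Tubb3 (44.4 ± 9.45 and 40.9 ± 4.59), with log2 differences from -0.17 to 0.24. Tubulins form microtubules, and Nnat encodes neuronatin, a small membrane protein of developing brain. All 5 sites lay in a coding exon or a 3′ UTR. Actins and tubulins have near-identical copies, and tags of one copy may have been placed on another.

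Among the sites with the smallest unadjusted p of those higher in HFD-Pio, 9 are described, in Acta1, Rack1, Cpe, App, Pdia3, Pabpc1, Slc8a1, Camsap1 and Ctnnb1. None passed the adjusted test (limma adjusted p = 0.820 to 0.844). At Acta1, skeletal muscle α-actin (coding exon, chr8:123893226-123893515), fold enrichment was 12.6, 13.4, 16.6, 11.8 and 16.6 in the HFD-Pio livers. The Pio livers had 11.5, 5.25, 6.35, 12.5 and 11.3, so that 1 Pio liver reached into the HFD-Pio range (log2 difference 0.81 ± 0.216 SE, unadjusted p = 0.000869, limma adjusted p = 0.820). At Rack1, a scaffold protein of the ribosome (coding exon, chr11:48803267-48803624), the HFD-Pio livers had 13.1, 11.8, 20.02, 13.2 and 11.1 and the Pio livers 10.9, 7.87, 10.1, 8.24 and 8.46. Those groups did not overlap. Without centring, all 5 HFD-Pio livers lay above all 5 Pio livers at 6 of 3179 sites (0.189%) and below them at 29 (0.912%), and after centring at 14 (0.44%) and 5 (0.157%). At Pabpc1, the cytoplasmic poly(A)-binding protein, the range was 11.2 to 12.4 in HFD-Pio and 7.21 to 11.1 in Pio, and the groups were again apart. That site lay in an intron of the coding transcripts, over an annotated transcript that retains it. App, the amyloid precursor, had a mean of 10.8 ± 2.52 in HFD-Pio and 7.18 ± 2.67 in Pio (SD, n = 5) at 1 of its 11 sites. The median log2 difference of the 11 was -0.00263.

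Among sites lower in HFD-Pio the 10 with the smallest unadjusted p were in Ptgds, Sbk1, Scd2, Atp2a2, Dbi, Ppib, Dpysl5, Rplp1, Hnrnpab and Dcx (limma adjusted p = 0.820 to 0.844). The site at Ptgds, prostaglandin D synthase (chr2:25466734-25466955), had the smallest p of all sites tested. Its fold enrichment was 4.71, 3.77, 5.72, 4.41 and 3.80 in HFD-Pio and 7.32, 6.60, 9.36, 10.1 and 8.56 in Pio. The summit lay in an intron of the coding transcripts and over an annotated transcript that retains it. The groups did not overlap (log2 difference -0.77 ± 0.203 SE, unadjusted p = 0.000805, limma adjusted p = 0.820). As given above, HFD-Pio livers all lay below Pio livers at 29 of 3179 sites (0.912%) without centring. Scd2, a stearoyl-CoA desaturase that makes monounsaturated fatty acids (coding exon, chr19:44294837-44295291), had 7.07, 5.88, 5.43, 4.28 and 7.60 in HFD-Pio. Pio livers had 14.3, 7.40, 7.77, 13.3 and 13.3, of which 1 lay below the highest HFD-Pio liver (log2 difference -0.72 ± 0.224 SE, limma adjusted p = 0.844). Rplp1, a protein of the ribosomal stalk, ranged from 7.77 to 12.2 in HFD-Pio and from 13.6 to 18.9 in Pio. Dbi, which binds acyl-CoA esters, had 5.52 ± 1.54 and 9.95 ± 4.55 (SD, n = 5), where replicate 1 of Pio alone had 17.8. Dcx and Dpysl5 encode proteins of migrating and growing neurons. Their means were 8.69 ± 2.58 and 14.1 ± 3.10 at Dcx and 7.64 ± 1.78 and 12.4 ± 2.72 at Dpysl5 (SD, n = 5, HFD-Pio first). The 19 sites named here kept their direction under the 16 alternatives in which each could be fitted, but 5 of the lower sites missed an unadjusted p of 0.05 in 1 or 2 of them. The sites were chosen for a small p in these same data. The alternatives reuse most of the same livers, so a kept direction says little of stability. Sbk1 had a log2 difference of -0.22 on the pileup and Dcx one of -0.39 without replicate 3 of HFD-Pio. Dbi, Ppib and Dpysl5 had -0.44, -0.44 and -0.41 at their smallest. Closest to a DR1 were Sbk1 and Hnrnpab, with 2 mismatches each.
Sbk1 (chr7:126290073-126290102, plus strand): ggcttacaAGGGCACAGGTGAgtgttggtg
Hnrnpab (chr11:51604799-51604828, minus strand): gttttacacAGGTCTTAGATCAgaaggagc

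**Figure D4:**
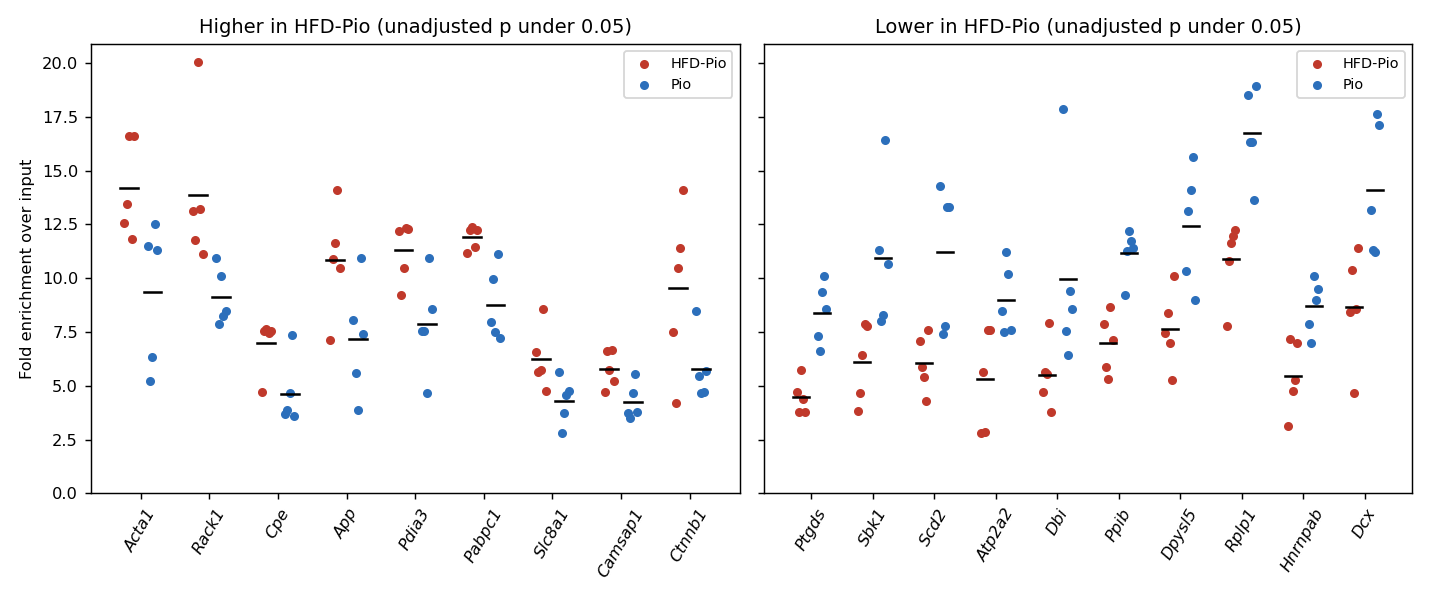
Fold enrichment over input (vertical axis) in each of the 5 HFD-Pio and 5 Pio livers at 9 sites that were higher and 10 that were lower at an unadjusted p under 0.05, with lines at the group means. The groups are apart at Rack1, Pabpc1, Ptgds, Sbk1, Ppib and Rplp1 and overlap at the others, and no site passed the adjusted test.

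A second measure asked which sites appeared or disappeared with diet. Of 16080 sites with a peak in 3 or more livers of a group, 358 (2.23%) were gained on HFD-Pio, meaning called in at least 3 of 5 HFD-Pio and 0 of 5 Pio livers. The opposite held for 873 (5.43%), which were lost. Most of these rested on the minimum of 3 livers, 309 of the gained and 696 of the lost sites, while 4 and 28 were called in all 5 livers of a group. Fisher's exact test per site gave 0 of 16080 sites at an adjusted p under 0.05 (smallest adjusted p = 1). At an unadjusted p under 0.05 it gave 80 sites called more often in HFD-Pio and 270 called more often in Pio. The test cannot fall below 0.167 for 3 livers against 0, and its smallest possible value, for 5 against 0, is 0.00794. The calls were made from few tags, with a median height at the summit of 3 tags at gained and lost sites and of 7 tags at sites in all 10 livers. With each list shortened to its strongest 19472 peaks, 403 sites were gained and 578 lost. When 1 liver of each group was left out, so that both groups kept 4, lost sites outnumbered gained sites in 25 of 25 pairs of omissions (203 to 340 gained and 454 to 795 lost). Such pairs share most of their livers and keep the unequal list lengths, so they are not independent of the full count.

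**Figure D5:**
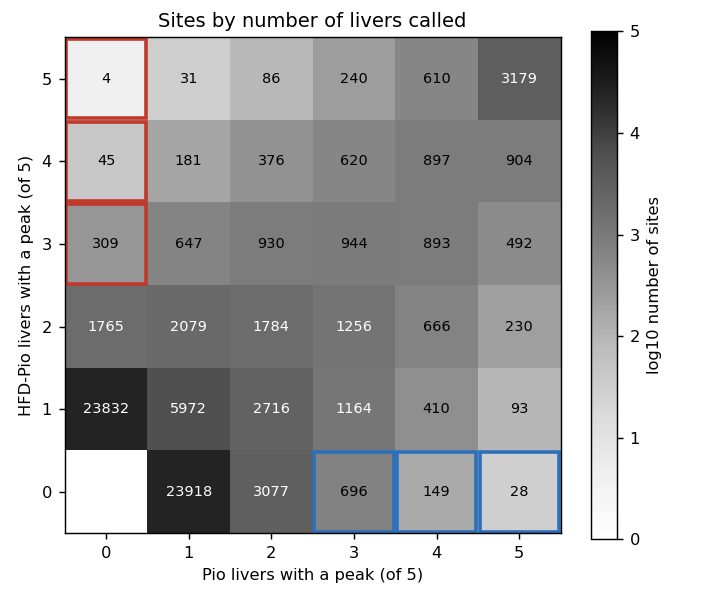
Numbers of sites by how many of 5 HFD-Pio livers (vertical axis) and 5 Pio livers (horizontal axis) had a peak there, with shading on a log10 scale. Red frames mark gained sites (309, 45 and 4) and blue frames lost sites (696, 149 and 28), against 3179 sites in all 10 livers.

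Most gained and lost sites were exonic. Exons held 79.3% of gained and 84.7% of lost sites, 88.3% of sites in all 10 livers and 60.6% of all sites. Outside all annotated exons 47 sites were gained and 94 lost. The 4 sites called in all 5 HFD-Pio and 0 Pio livers were in Atp11b, a phospholipid flippase (3′ UTR, chr3:35855643-35856015), and in coding exons of Grsf1, an RNA-binding protein of mitochondria, Atxn2, and Mrpl3, a protein of the mitochondrial ribosome. Their fold enrichment was low, from 3.21 ± 0.489 at Mrpl3 to 4.41 ± 1.06 at Atp11b (SD, n = 5). Next by rule came sites in Mast4, Ndufb7, Tspan6 and Klhl2, called in 4 livers. The Mast4 site overlapped a pseudogene.

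The leading lost site was in a coding exon of Cox5a, a subunit of cytochrome c oxidase (chr9:57521254-57521448). It had a fold enrichment of 6.68, 5.24, 7.77, 7.66 and 6.45 in the Pio livers and no peak in any HFD-Pio liver. Cox5a had some peak in all 10 livers. Efnb2, an ephrin ligand, followed with a mean of 6.15 and a range of 4.45 to 7.30 (chr8:8620543-8621062), then Timm13, a chaperone of mitochondrial protein import, with 5.63 ± 1.27 (chr10:80900058-80900337), Rad23b with 5.50 ± 0.809 and the kinesin motor Kif1b with 5.48 ± 2.13 (SD, n = 5). Nrxn2, Ube2j1 and Plxna1 had 5.03 to 5.15. All 8 were called in 5 of 5 Pio and 0 of 5 HFD-Pio livers (Fisher's exact p = 0.00794, adjusted p = 1).

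Most genes with a gained or lost site had some peak in the group that lacked that site. Gained sites were in 320 genes, of which 298 had some peak in at least 3 Pio livers, and lost sites were in 764 genes, of which 659 had some peak in at least 3 HFD-Pio livers. Both kinds were present in 71 genes. When the peaks of a gene were pooled, 65 of 6718 genes (0.968%) were gained and 127 (1.89%) were lost. No gene went from 0 Pio livers to all 5 HFD-Pio livers. The 8 leading gained genes were Tspan31, Capn12, Nos1, Nhp2, Pck2, Zfp558, Syne1 and Zfp768. Pck2, the mitochondrial form of PEP carboxykinase, had 3.65, 3.77, 3.81 and 2.85 in replicates 1 to 4 of HFD-Pio and no peak in replicate 5 or in Pio livers. Among the leading lost genes, Timm13, Ttc14, Ier3ip1, Setd6, Cenpt and Aimp2 had a peak in all 5 Pio livers and Mrps34 had one in 4. With lists of equal length the excess of lost over gained genes turned, to 100 gained and 90 lost. At −log10 q of at least 5 there were 43 gained and 41 lost genes. With 1 liver of each group left out, lost genes outnumbered gained genes in 25 of 25 pairs (35 to 66 gained and 70 to 136 lost). These pairs share most of their livers and keep the unequal list lengths, so they are not independent of the full count.

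The 7 canonical adipogenic targets of PPARγ had a peak in 1 to 2 members per liver on either diet (14.3 to 28.6%), against 25.7 to 32.9% of all protein-coding genes per liver. Cd36, Cidec, Fabp4 and Plin4, which serve fatty acid uptake, lipid droplets and fatty acid binding, had no peak in any of the 10 livers. Cfd, complement factor D, had a peak upstream of the gene in 4 livers of each group (chr10:79888664-79888955). Fold enrichment there was 5.88, 5.60, 10.3 and 7.87 in replicates 2 to 5 of HFD-Pio and 7.23, 9.62, 10.03 and 5.404 in replicates 1, 2, 4 and 5 of Pio. Cav1, caveolin, had a peak in 3 HFD-Pio and 2 Pio livers and Mogat1, which makes diacylglycerol, in 1 HFD-Pio liver. Lipid droplet genes had a peak in 5 of 18 members, against 11526 of all 21911 protein-coding genes. That list had a peak in 0 to 3 genes per HFD-Pio liver and 0 to 2 per Pio liver, and no gene of it had one in all 10. The study took these 7 genes from earlier reports of hepatic genes regulated by PPARγ.

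Pparg had 1 peak, in an intron, in replicate 4 of Pio (fold enrichment 3.71). A ChIP peak does not report the deletion, and the knockout was therefore not checked here. Of the genes of RXR itself, Rxra had a peak in 1 liver of each group, Rxrb in 2 HFD-Pio and 4 Pio livers and Rxrg in 1 and 3. Of 28 RXR and partner receptors, 2 had a peak in all 10 livers, Thra (thyroid hormone receptor α) and Nr2f1. Thra was 12.0 in HFD-Pio and 9.46 in Pio at its leading site (log2 difference 0.43 ± 0.203 SE, unadjusted p = 0.0426, limma adjusted p = 0.928). The 10 sites of this list, 9 of them in Thra, had a median log2 difference of 0.10, against 0.0231 over the 3007 sites in genes. No receptor gene had a gained or lost site. Ppara, Nr1h3 (LXRα), Hnf4a, Nr0b2 and Vdr had no peak in any liver.

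Among coregulators, which receptors recruit to open or close chromatin, 11 of 15 genes had a peak in all 10 livers. They held 2 gained and 6 lost sites, out of 335 and 849 in all protein-coding genes. Ncor1, the nuclear receptor corepressor, had 1 gained and 2 lost, and Ncoa1, a coactivator, had 1 of each, so that single genes went both ways. Crebbp and Tbl1xr1 had 1 lost site each. Hdac3, the deacetylase of the corepressor complex, had 4.02 in HFD-Pio and 6.01 in Pio at its 1 tested site (log2 difference -0.42 ± 0.197 SE, limma adjusted p = 0.928).

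Genes of lipid metabolism were examined next. Of all 21911 protein-coding genes, 11526 had a peak in at least 1 liver. Fatty acid oxidation and PPARα targets had a peak in 26 of 46 genes and in 8 to 11 per HFD-Pio against 5 to 9 per Pio liver. Only 2 genes had one in all 10 livers. The list had 0 gained and 1 lost site (Hsd17b4), while Acadl, a long-chain acyl-CoA dehydrogenase, was gained as a gene with 3.68, 4.77 and 3.72 in replicates 1, 3 and 5 of HFD-Pio. In all, 65 of 6718 genes with a peak in at least 3 livers of a group (0.968%) were gained. Cpt2, Acadm, Ehhadh, Cyp4a10, Pdk4, Fgf21 and Angptl4 had no peak. The LXR and FXR targets gave 11 of 24 genes with a peak and 0 gained or lost sites, and Cyp7a1, the rate-limiting enzyme of bile acid synthesis, Cyp8b1 and Abcg5 had none.

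Over all 21911 protein-coding genes, 11526 had a peak and 2943 had one in all 10 livers. In fatty acid synthesis 24 of 28 genes had a peak and 9 had one in all 10 livers, including Fasn and Acly. The median log2 difference of its 15 tested sites was -0.0192, 1 site was at an unadjusted p under 0.05 (Scd2, above), and 1 site was lost (Elovl6). At Fasn, fatty acid synthase, the leading site had 9.43 in HFD-Pio and 9.29 in Pio (log2 difference 0.15 ± 0.190 SE, limma adjusted p = 0.989). In cholesterol synthesis 23 of 26 genes had a peak. Hmgcs1, HMG-CoA synthase, had 12.2, 8.49, 14.3, 13.3 and 10.5 in HFD-Pio and 9.39, 12.3, 6.56, 7.36 and 8.11 in Pio. The groups overlapped (log2 difference 0.58 ± 0.207 SE, unadjusted p = 0.00932, limma adjusted p = 0.844). Srebf2, which activates this pathway, had 7.06 and 5.49 (log2 difference 0.54 ± 0.231 SE, limma adjusted p = 0.850). Stard4, a cholesterol carrier, was lost as a gene, with a peak in 4 Pio livers (2.81 to 4.64) and no HFD-Pio liver. In all, 127 of 6718 genes with a peak in at least 3 livers of a group (1.89%) were lost.

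Of 82 nuclear genes of oxidative phosphorylation, 74 had a peak and 33 had one in all 10 livers (40.2%, against 13.4% of all genes). Beside 335 gained and 849 lost sites in all protein-coding genes, they held 4 gained sites, in Ndufa9, Ndufb7, Ndufs3 and Uqcrc1, and 9 lost sites, in Cox5a, Ndufb8, Ndufb9, Ndufs4, Sdha, Sdhb, Sdhd and Uqcr11. None of the 82 genes was gained or lost as a gene. At the 30 sites tested the median log2 difference was 0.0727, with 19 of 30 above 0, against 1645 of 3007 in all protein-coding genes. At an unadjusted p under 0.05, 3 were higher and 1 was lower, against 105 and 52 of those 3007 sites. Sdhd, a subunit of succinate dehydrogenase, had a lost site in a coding exon while its 3′ UTR site was 5.87 in HFD-Pio and 4.49 in Pio (log2 difference 0.53 ± 0.215 SE, limma adjusted p = 0.844). Atp5b and Atp5a1, both of the catalytic core of ATP synthase, had log2 differences of 0.50 ± 0.229 and 0.46 ± 0.214 (SE, limma adjusted p = 0.921 and 0.928). Atpif1, the inhibitor of that enzyme, had 10.3, 12.8, 10.3, 11.3 and 7.77 in HFD-Pio and 14.3, 15.1, 13.2, 14.9 and 18.9 in Pio, with no overlap (log2 difference -0.41 ± 0.188 SE, limma adjusted p = 0.921). Without centring, all 5 HFD-Pio livers lay below all 5 Pio livers at 29 of 3179 sites (0.912%), and after centring at 5 (0.157%).

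Genes of protein synthesis and the cytoskeleton were read against all sites tested, of which 3.59% were higher and 1.7% lower at an unadjusted p under 0.05. Translation factors had 52 tested sites with a median log2 difference of 0.10, 4 of them at an unadjusted p under 0.05, all higher (Pabpc1, Eif3c, Eif3f and Eif4a2), with 3 gained and 1 lost site. Chaperones had 51 tested sites (median 0.0846), with Pdia3 and Canx higher and Ppib lower at an unadjusted p under 0.05. Tubulins and actins had 28 (median 0.16), with 2 higher (Acta1 and Tubb2b). Cytosolic ribosomal proteins had 35 (median -0.0222), with 1 higher and 1 lower (Rplp1) at an unadjusted p under 0.05, and glycolysis had 17 (median 0.0425), with 1 gained and 4 lost sites. The 67 sites of neural markers had a median of 0.0121, with 35 of 67 above 0. None of these sites passed the adjusted test, and across all 3179 sites the median was 0.0259. Of the 3007 tested sites in protein-coding genes, 1645 were above 0. All protein-coding genes together held 335 gained and 849 lost sites. The summed strongest fold enrichment of the chaperones was 215 to 251 in HFD-Pio and 259 to 271 in Pio, without overlap. Over all protein-coding genes it was 30972 to 35385 and 32852 to 41531, with overlap. These sums were not centred, and the differences were not tested.

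Markers of other cells were counted in the same way. Over all 21911 protein-coding genes, 11526 had any peak, and they held 335 gained and 849 lost sites. Of 6718 genes with a peak in at least 3 livers of a group, 65 (0.968%) were gained and 127 (1.89%) were lost. Smooth muscle markers had a peak in 8, 9, 11, 9 and 13 of 16 genes in the HFD-Pio livers and in 7, 7, 9, 8 and 8 in the Pio livers, so that the groups overlapped. Myh11 and Cnn1, both of contractile smooth muscle, were gained as genes, each at the minimum of 3 HFD-Pio livers against 0 Pio livers. Actg2 had a peak in 4 and 1. The summed strongest fold enrichment of the list was 44.8 to 79.2 and 46.5 to 57.3, and Acta2, Tagln, Tpm1 and Flna had a peak in all 10 livers. Stellate cell and fibroblast markers had a peak in 10 to 12 genes per HFD-Pio and 10 to 13 per Pio liver. Pdgfrb and Col6a1 were lost as genes, each with a peak in 3 Pio livers and 0 HFD-Pio livers, and the list had 3 gained and 3 lost sites. Of its 10 tested sites 6 were above 0, against 1645 of 3007 in all protein-coding genes. Sparc, a matrix protein, had 5.87 in HFD-Pio and 4.21 in Pio (log2 difference 0.59 ± 0.224 SE, unadjusted p = 0.0146, limma adjusted p = 0.844). Of the macrophage and Kupffer cell markers 5 of 15 had any peak and C1qb was lost as a gene (3 Pio livers). Sinusoidal endothelial markers had 0 to 4 genes per HFD-Pio and 1 to 5 per Pio liver. Erythroid markers had 2 tested sites, with log2 differences of -0.43 at Hbb-bs and -0.0727 at Hba-a1 (limma adjusted p = 0.928 and 0.996). Cholangiocyte, lymphocyte, adipose, intestinal, pancreatic, kidney, lung, testis and skeletal muscle markers had a peak in 1 to 6 genes each and 0 gained or lost genes. The part of such cells in any result was not tested.

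Whether the drug altered the effect of diet was tested with the 10 KO livers that received no Pio, 5 on HFD and 5 on control diet (Control). At 1985 sites called in all 20 KO livers, limma gave 0 calls (0%) for the difference between the diet effects with and without Pio (smallest adjusted p = 0.830), and 99 sites were at an unadjusted p under 0.05. Replicate 5 of HFD had 8311 peaks and replicate 4 of Control 7630, against 14728 to 30437 in the other KO livers. Their short lists limit which sites could be tested and enter the diet effect on peaks without Pio. The leading site was in a coding exon of Dync1h1, the heavy chain of cytoplasmic dynein (chr12:110632549-110633345). There the log2 diet difference was -0.39 with Pio and 0.69 without, so that the difference between them was -1.07 (unadjusted p = 0.000418, limma adjusted p = 0.830). Prrc2c, Pdia3 and Sec62 followed with differences of 0.94, 0.98 and 0.88 (limma adjusted p = 0.963). The diet effect on the log2 number of peaks was -0.12 with and 0.15 without Pio, a difference of -0.27 (permutation p = 0.574 with 100000 resamples).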

How the data were processed

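RXR ChIP-Seq peaks of 10 KO livers were analyzed, with 10 further KO livers for the interaction. The authors mapped single reads to mm10 (Novoalign). Every ChIP library was set against its matched input library in MACS2 (2.1.1.20160309). Per the file headers the q cutoff was 0.05 with 1 tag kept per position. The deposited values are the fold enrichment at the summit (a ratio of ChIP to local input background), the pileup (a signal in tags) and −log10 p and q. WT libraries and reads per site were not used here, so that the authors' differential test on reads was not repeated and no counting interval was computed.

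Summits of 1 interval were reduced to the strongest. Intervals on chromosomes 1 to 19, X and Y that overlapped by at least 1 bp were merged into sites, and a liver called a site when it had a peak there. Summits were placed on GENCODE M21 in exons or introns of protein-coding genes, within 5 kb upstream or 1 kb downstream, or elsewhere. Reference chromosomes were no shorter than the last site on each. Sites called in all 10 livers were tested with limma 3.58.1 (R 4.3.3, trend, Benjamini-Hochberg), other measures with exact two-sided permutation tests over 252 assignments of livers, and calls per site with Fisher's exact test (scipy 1.17.1; Python 3.11.15, pandas 2.3.3, numpy 2.4.6 and matplotlib 3.10.9). The limma script was tested on simulated data. The livers came from separate animals. Replicate numbers did not pair livers.

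Sites named were the 10 higher and 10 lower with the smallest unadjusted p, 8 gained and 8 lost sites and genes by difference in livers and then fold enrichment, the 5 strongest sites, the exemplar and RXR genes, and up to 4 members per list, 1 site per gene. Other genes of the lists and of the interaction were named after their values were seen. Results of some genes that these rules name are not reported here. The part of the series studied, and the 33 gene lists, were chosen with earlier results of these data known. Settings tried are given at the end.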

Additional observations from a re-analysis of the deposited data

Results flagged for a closer look

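Values that stood far from the other 4 livers of their group were sought in 90 groups of 5 with Dixon's test, and 11 were found. Chance gives about 1 in 20 groups. Replicate 1 of HFD-Pio held 4 of them among the library measures, with 0.879 megatags kept, 1.10% of summits upstream and 0.458% downstream of genes, and 14.7% of summits outside genes. It was also low at the Cpe site, with a fold enrichment of 4.69. Replicate 1 of Pio had 67.1% redundant tags, 17.8 at the Dbi site and 8.45 at the Ctnnb1 site. Replicate 3 of HFD-Pio had 20.02 at the Rack1 site, replicate 4 of Pio 7.36 at the Cpe site and replicate 3 of Pio 24.2 at the Tuba1a site.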

How the results depend on the processing

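The test of fold enrichment gave 0 calls under no centring, sites in at least 4 of 5 livers of each group (5590 sites), no trend, pileup scaled to the tags kept, tags kept as a covariate, −log10 q of at least 5 (1028 sites), a merge over 20 KO libraries, no fold minimum and without each liver in turn (limma, smallest adjusted p = 0.230). Unadjusted counts were 88 to 109 higher and 64 to 96 lower without single livers, and 88 and 96 without replicate 1 of HFD-Pio. Replicate numbers did not pair the livers (correlations of deviations -0.025 to 0.036), and with them as a replicate block 0 sites were called, with 109 higher and 54 lower at an unadjusted p under 0.05. Counts of calls depended on the settings. A minimum of 4 of 5 livers gave 49 gained and 177 lost sites and 7 and 32 genes, −log10 q of at least 5 gave 132 and 214 sites and 43 and 41 genes, lists of equal length 403 and 578 sites and 100 and 90 genes, and sites outside exons 47 and 94. Summits within 100 bp gave 548 gained and 1101 lost sites. Leaving out 1 liver gave 147 to 602 gained and 357 to 1313 lost sites, and 24 to 118 gained and 51 to 213 lost genes. This follows from the rule, since the group with 4 livers reaches 0 more easily and 3 less easily, and says nothing of stability. With 1 liver of each group left out, more were lost than gained in 25 of 25 pairs, for sites and for genes. The pairs share most of their livers and keep the unequal list lengths, so this too says little of stability. The difference in exon share was -4.31 to 0.327 percentage points without single livers and 0.114 for peaks of at least 5-fold enrichment. The difference in log2 peaks was -0.17 to -0.0378 without single livers. It was -0.31 for peaks of at least 5-fold enrichment (exact permutation p = 0.0714). At −log10 q of at least 5 it was -0.12, and the difference in log2 covered bases was -0.19 (exact permutation p = 0.675 and 0.190). The interaction on peaks was -0.56 to 0.0205, positive only without replicate 4 of Control, and the interaction at sites kept 0 calls without each of 20 livers and at 3731 sites in at least 4 of 5 livers of 4 groups (188 at an unadjusted p under 0.05). These omissions, and those of 1 liver of each group, were chosen after seeing the data. The Tuba1a difference was -0.00918 without replicate 3 of Pio and up to 0.32 without other livers. With a median of 3 tags behind gained and lost sites, a site missed in a liver was not shown to be unbound there.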
